A study of Arabidopsis thaliana with 16 samples.

Results

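The sterol biosynthesis genes described here are DWF1 and 9 further enzymes of the same pathway, picked by locus identifier out of 37336 identifiers, because DWF1 mRNA was near 0 in wild-type dry seeds and abundant in seeds of a double mutant. The level of DWF1 in that mutant therefore chose the set and is given as a description, without a test. The RNA came from mature dry seeds of Arabidopsis thaliana and was read by 3′RNA-Seq, an assay primed at the poly(A) tail that reads the last part of each transcript. There were 4 genotypes with 4 libraries each, called biological replicas in the series record: wild-type Col-0, brm-3 and dog1-4 with 1 mutated gene each, and the double mutant brm-3dog1-4. brm-3 is a T-DNA insertion line of BRM, which encodes the ATPase BRAHMA of SWI/SNF chromatin remodeling complexes, and it is viable and sets seed, whereas null brm plants are sterile. dog1-4 is an insertion line of DOG1, the main regulator of seed dormancy, and brm-3dog1-4 carries both insertions. Plants were grown under long days in a greenhouse, and the harvested seeds were kept dry in paper bags at room temperature.

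Plant sterols are membrane lipids, and campesterol is also the precursor of brassinosteroids, steroid hormones that promote growth and germination. The pathway begins when CAS1 folds oxidosqualene into the ring system of cycloartenol. SMT1 then adds the first methyl group to the side chain, and CYP51G1, FK, HYD1, DWF7 and DWF5 remodel the rings in that order. DWF1 finally reduces the side chain and so yields campesterol and sitosterol, while SMT2 and SMT3 add the second methyl group that steers the flow to sitosterol. Mutants of DWF1, DWF5 and DWF7 are dwarfs that lack brassinosteroids, and those of FK and HYD1 fail in embryo patterning.

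The libraries held 803578 to 2359673 counts, and 10251 of 21204 detected genes were abundant enough to be tested. Levels are CPM, counts scaled to library size, with library sizes corrected by the TMM method, which assumes that most genes do not differ. The TMM factors were 0.817 to 0.927 in Col-0, 0.831 to 0.919 in brm-3, 0.924 to 1.09 in dog1-4 and 1.18 to 1.34 in the double mutant, so without them the median gene would be 0.58 higher on the log2 scale in brm-3dog1-4 than in Col-0. Values on library totals without TMM are named where they change a result. On average 3 counts in a library were worth 2.07 CPM in Col-0, 1.86 in brm-3, 2.62 in dog1-4 and 1.52 in the double mutant, and this is taken as the floor for folds. Of the mutated genes, DOG1 had a log2 fold change of -4.74 in dog1-4 and -5.03 in the double mutant against Col-0, and BRM was at -1.29 in brm-3 and at -1.24 with both insertions. The 7 mature seed markers were present in every genotype, but their sum was 62195 to 83899 CPM in brm-3dog1-4, below every Col-0 library at 89294 to 130716. On library totals without TMM the sums of these 2 genotypes overlapped, so the lower sum rests on the scaling. EM6, SESA1, EM1 and OLEO1 were lower than in Col-0 by edgeR (log2 fold change -2.10, -0.93, -0.59 and -0.59), on library totals EM6 alone (-1.55), and CRA1 was higher (0.34). Their part in the levels of the sterol genes was not tested. The 3 seed coat markers had at most 1 count in any library.

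DWF1 (AT3G19820) lies on the minus strand at chr3:6879524-6882315 of TAIR10.1 and has 2 exons. It had 0, 1, 0 and 0 counts in the Col-0 libraries, 4, 6, 1 and 7 in brm-3, 2, 4, 2 and 5 in dog1-4, and 84, 160, 15 and 90 in the double mutant. Every brm-3dog1-4 library was above all 12 others, whereas the single mutants stayed within a few counts of the floor. In CPM the brm-3dog1-4 libraries were at 34.8, 51.4, 13.1 and 37.7, so replicate 3, the shallowest library of that genotype, was well under the rest. The gene averaged 0.203 ± 0.407 CPM (SD, n = 4) in Col-0, 2.77 ± 1.56 in brm-3, 2.96 ± 1.85 in dog1-4 and 34.3 ± 15.8 in the double mutant. The means of brm-3 and dog1-4 differed by less than either SD. The brm-3dog1-4 mean was at least 16.5-fold higher than the Col-0 floor, and this bound ran from 13.9 to 19.8 when 1 library was left out. It was 12.4-fold that of brm-3 and 11.6-fold that of dog1-4. The dog1-4 libraries lay wholly above those of Col-0, as did those of 10.2% of all tested genes, and the lowest brm-3 library overlapped them. Pooled over its 4 libraries, brm-3dog1-4 had 349 DWF1 counts, or 49.3 CPM of the uncorrected totals with an exact Poisson 95% interval of 44.2 to 54.7, against 1 count in Col-0, 0.144 CPM with an interval of 0.00364 to 0.802. These intervals cover counting error only.

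The gene AT3G19810 overlaps the 3′ end of DWF1 by 20 bases on the same strand, where reads of this assay fall. It held 15 to 51 counts in every library and in the double mutant it missed the threshold of the edgeR quasi-likelihood test (log2 fold change -0.16, adjusted p = 0.521). The gene before DWF1's start, AT3G19830, fell by 1.14 on the log2 scale in brm-3dog1-4 (adjusted p = 0.00206, edgeR). On library totals without TMM it averaged 13.5 ± 4.97 CPM (SD, n = 4) in Col-0 and 9.75 ± 5.92 in the double mutant, so the size of its fall rests on the scaling. The high DWF1 level was therefore not shared by the genes on either side. The 250 bases upstream of DWF1, at chr3:6882316-6882565 on the minus strand, hold no annotated gene and are shown as the promoter of the gene that defines the set, in the RefSeq TAIR10.1 sequence.
DWF1 upstream: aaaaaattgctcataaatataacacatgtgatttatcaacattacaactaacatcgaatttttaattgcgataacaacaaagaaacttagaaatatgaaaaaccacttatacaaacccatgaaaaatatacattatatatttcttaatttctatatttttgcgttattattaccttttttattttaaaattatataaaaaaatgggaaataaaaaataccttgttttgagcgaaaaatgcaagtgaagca
This stretch has 22% G and C, against a median of 31.2% over 27443 Arabidopsis promoters of the same length, 5.15% of which are at or under its value. It holds no match on either strand to the G-box CACGTG, the RY motif CATGCA, the telo box AAACCCT or the BZR1 motifs CGTGTG and CGTGCG.

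Among the 6 green tissue markers examined beside DWF1, RBCS1A, a small subunit of Rubisco, was the sole one above 3 counts in any library, and the light-harvesting genes CAB1, CAB2 and LHCB2.1 were at or near 0. The summed level of the 6 was 5.70 to 12.1 CPM in Col-0, 23.7 to 30.6 in brm-3, 27.1 to 47.3 in dog1-4 and 53.4 to 102 in the double mutant, an order of genotypes like that of DWF1, with both single mutants overlapping. Its part in the DWF1 level was not tested. In whole seeds, fewer cells of a type and less RNA per cell cannot be told apart.

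**Figure D1:**
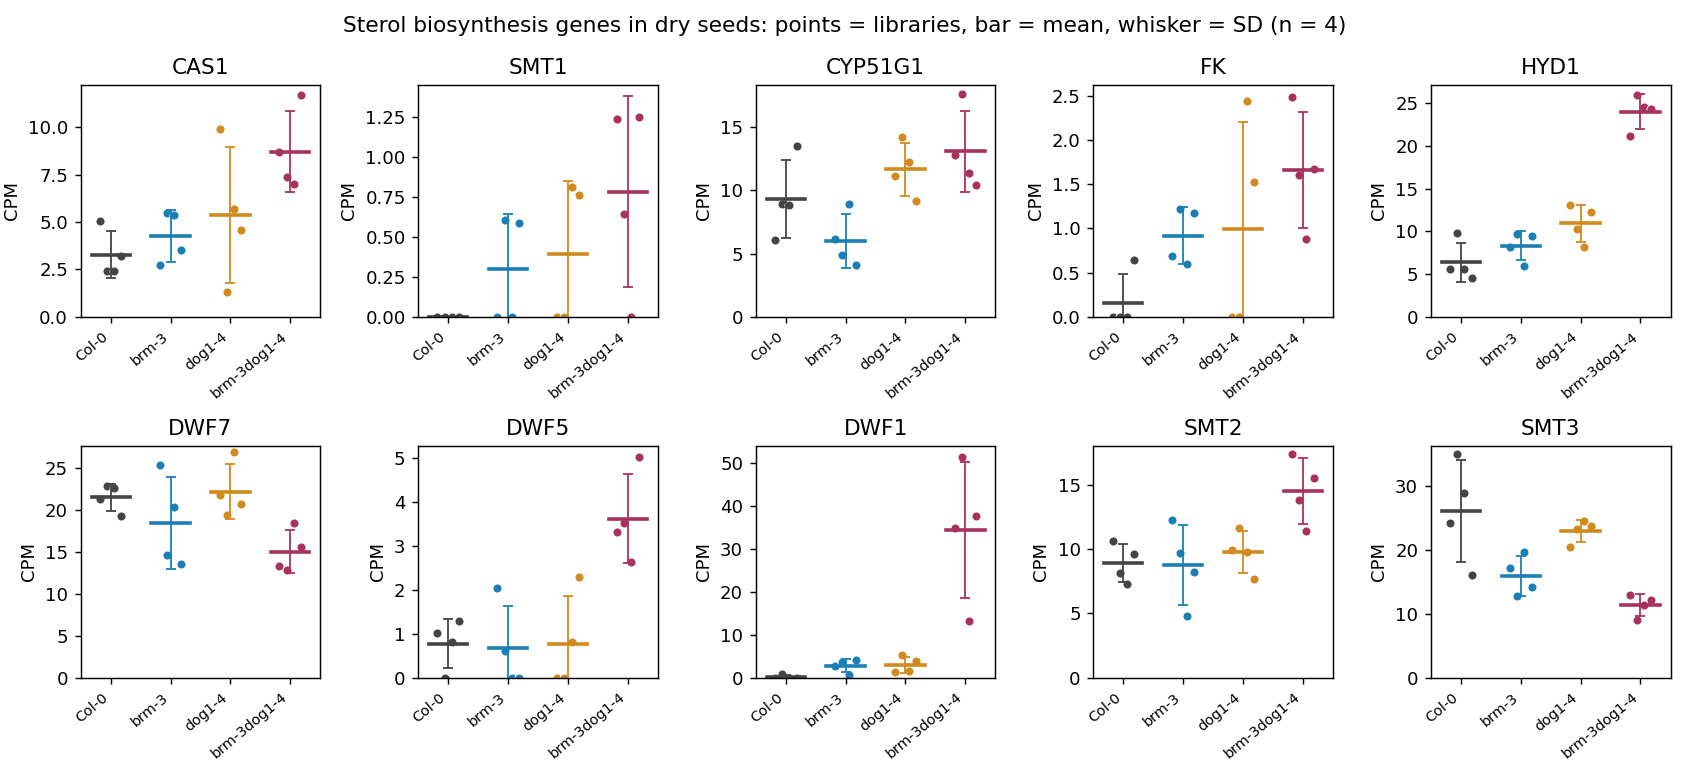
Level in CPM of each of the 10 sterol biosynthesis genes in pathway order, by genotype. Points are libraries, bars are means and whiskers are SD (n = 4), cut at 0; each panel has its own scale. DWF1, HYD1 and DWF5 have all 4 brm-3dog1-4 libraries above all 12 others, and SMT3 and DWF7 have them below all Col-0 libraries, although the DWF7 difference from Col-0 vanishes (log2 0.015) on library totals without TMM. Of all tested genes 19.9% had the brm-3dog1-4 libraries wholly below those of Col-0, and the share above all 12 others was not counted.

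HYD1 (AT1G20050, chr1:6949043-6950509, plus strand) is the isomerase that shifts the ring double bond. It had the largest rise over Col-0 in the double mutant among the 6 enzymes other than DWF1 abundant enough for the main test. Its counts were 11, 12, 7 and 7 in Col-0, 12, 16, 10 and 16 in brm-3, 21, 8, 10 and 16 in dog1-4, and 51, 81, 28 and 58 in the double mutant. Relative to library size the double mutant libraries lay close together, at 21.1 to 26.0 CPM, and the highest of the other 12 was at 13.04. The gene averaged 6.36 ± 2.33 CPM (SD, n = 4) in Col-0, 8.32 ± 1.70 in brm-3, 10.9 ± 2.18 in dog1-4 and 24.0 ± 2.06 in the double mutant. HYD1 rose in brm-3dog1-4 by 1.95 ± 0.23 (SE) on the log2 scale over Col-0 (adjusted p = 1.99e-10, edgeR), and it also rose over brm-3 by 1.52 (adjusted p = 2.44e-08, edgeR) and over dog1-4 by 1.10 (adjusted p = 5.01e-05, edgeR). In dog1-4 alone it rose by 0.84 ± 0.30 over Col-0 (adjusted p = 0.0372, edgeR). That smaller call was lost with DESeq2 (adjusted p = 0.0940), with every detected gene tested (0.0886), and in edgeR without Col-0 replicate 1, 3 or 4 or dog1-4 replicate 1 or 4 (0.0782 to 0.158). RBCS1A, the sole green tissue marker above 3 counts in any library, was highest in the same genotype, and its part in the HYD1 level was not tested. HYD1 overlaps AT1G20060 on the opposite strand by 117 bases, and that gene had at most 1 count in any library.

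CAS1 (AT2G07050, chr2:2924360-2930751, plus strand), the cyclase at the entry of the pathway, had 10, 3, 3 and 5 counts in Col-0 and 21, 23, 8 and 28 in brm-3dog1-4. The brm-3 libraries held 4, 9, 9 and 6 counts and the dog1-4 libraries 16, 1, 7 and 6. The gene averaged 3.28 ± 1.24 CPM (SD, n = 4) in Col-0, 4.27 ± 1.36 in brm-3, 5.38 ± 3.57 in dog1-4 and 8.70 ± 2.14 in the double mutant. The double mutant libraries did not overlap those of Col-0 or brm-3, while dog1-4 spread widely. The ratio of the means was 2.65 to Col-0 and 2.04 to brm-3. CAS1 passed the filter on low counts through the 4 brm-3dog1-4 libraries and 1 other, so its test in that filtered set is not given as support. With all 21204 detected genes tested instead, a set that does not depend on the genotype in which CAS1 is high, the log2 fold change was 1.32 over Col-0 (adjusted p = 0.00152, edgeR) and 1.01 over brm-3 (adjusted p = 0.0157, edgeR). In the filtered set the call against brm-3 was lost without brm-3 replicate 1 (adjusted p = 0.0517, edgeR) or brm-3dog1-4 replicate 4 (0.0724).

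CYP51G1 (AT1G11680, chr1:3938422-3940871, plus strand), the cytochrome P450 that removes a methyl group from the ring system, had 12, 11, 11 and 21 counts in Col-0, 9, 8, 15 and 7 in brm-3, 18, 11, 15 and 12 in dog1-4, and 31, 55, 13 and 25 in the double mutant. The 4 brm-3dog1-4 libraries, at 10.5 to 17.7 CPM, were above the 4 brm-3 libraries, at 4.11 to 8.96 CPM, and overlapped those of Col-0 and dog1-4. CYP51G1 rose over brm-3 by 1.16 ± 0.27 on the log2 scale (adjusted p = 0.000349, edgeR). Over Col-0 the difference of 0.56 ± 0.25 missed the threshold (adjusted p = 0.0611, edgeR), but it passed without Col-0 replicate 4 (0.0174) or brm-3dog1-4 replicate 4 (0.0333). With upper-quartile normalization in place of TMM it also passed (log2 0.61, adjusted p = 0.0398, edgeR). It was 1.12 on library totals without TMM (adjusted p = 0.000219, edgeR). Its annotated pseudogene copy CYP51G2 (AT2G17330) had 0 counts in all 16 libraries.

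SMT1, FK and DWF5 were too low for the main test. SMT1 (AT5G13710), the methyltransferase that opens the side-chain branch, had 0 counts in all Col-0 libraries and at most 3 in any other, so no fold is given. FK (AT3G52940), the FACKEL reductase, had 0, 0, 0 and 1 counts in Col-0, 1, 2, 1 and 2 in brm-3, 0, 0, 3 and 2 in dog1-4, and 6, 5, 1 and 4 in the double mutant. Its brm-3dog1-4 libraries were above those of Col-0 and overlapped both single mutants, and their mean of 1.66 CPM was under the Col-0 floor, so no fold is given. DWF5 (AT1G50430, chr1:18681932-18685652, minus strand), the reductase just before DWF1, had 2, 0, 1 and 2 counts in Col-0, 3, 1, 0 and 0 in brm-3, 0, 0, 1 and 3 in dog1-4, and 8, 11, 3 and 12 in the double mutant. As with DWF1, every double mutant library was above all 12 others in CPM, and how many other genes show this was not counted. The mean DWF5 level in brm-3dog1-4 was 3.62 ± 1.01 CPM (SD, n = 4), at least 1.75-fold higher than the Col-0 floor, at least 1.95-fold higher than that of brm-3 and at least 1.39-fold higher than that of dog1-4.

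In exact two-sided permutation tests of 4 against 4 libraries, the smallest p possible is 0.0286. Of 15 such tests on SMT1, FK and DWF5, that value was reached by FK in brm-3dog1-4 against Col-0 and by DWF5 in brm-3dog1-4 against Col-0, brm-3 and dog1-4. The p-values of these permutation tests are not adjusted for the 15 tests, and reaching the smallest one says only that the groups did not overlap. How many other low genes reach it was not counted. With all 21204 detected genes tested in edgeR, the adjusted p in brm-3dog1-4 against Col-0 was 0.00691 for DWF5, 0.0194 for FK and 0.0399 for SMT1. SMT1 rests there on 8 counts summed over 4 libraries against 0, and its exact permutation p was 0.143. Of the 21204 genes, 26.3% passed in that comparison.

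Of the 10 promoters, that of DWF5 held 2 matches to the G-box, 1 base apart. The 30 bases at chr1:18685679-18685708 on the minus strand of TAIR10.1 (RefSeq) are shown with both matches in capitals.
DWF5 upstream: gtggagagCACGTGaCACGTGggatttatc
The window also overlaps the neighbouring gene AT1G50440. A G-box occurs on either strand in 6.49% of the 27443 promoters, and the other motifs named above matched none of the 10.

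DWF7 (AT3G02580, chr3:546739-548846, plus strand), the desaturase between HYD1 and DWF5, was among the more abundant of the 10 in Col-0 and went the other way. It had 42, 28, 28 and 30 counts in Col-0, 37, 24, 34 and 23 in brm-3, 35, 15, 33 and 27 in dog1-4, and 32, 40, 21 and 37 in the double mutant. In CPM the double mutant libraries, at 12.8 to 18.4, were below all libraries of Col-0, at 19.3 to 22.8, and of dog1-4, at 19.4 to 26.9. DWF7 fell by 0.56 ± 0.20 on the log2 scale in brm-3dog1-4 against Col-0 (adjusted p = 0.0168, edgeR), but on library totals without TMM the difference was 0.015 (adjusted p = 0.952, edgeR), so its direction rests on the scaling. It was 0.62 lower than in dog1-4 (log2 fold change -0.62, adjusted p = 0.0167, edgeR), and -0.27 on library totals (adjusted p = 0.282, edgeR). Without brm-3dog1-4 replicate 2 both calls were lost (adjusted p = 0.0716 and 0.0688, edgeR), as was the first without brm-3dog1-4 replicate 1 (0.0501) and the other without dog1-4 replicate 3 (0.0855) or with DESeq2 (0.0524).

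SMT2 and SMT3, the paired methyltransferases of the sitosterol branch, moved in opposite directions. SMT2 (AT1G20330, chr1:7038527-7040231, minus strand) had 21, 10, 9 and 15 counts in Col-0, 18, 16, 8 and 14 in brm-3, 16, 9, 12 and 10 in dog1-4, and 42, 43, 13 and 37 in the double mutant. It averaged 8.90 ± 1.504 CPM (SD, n = 4) in Col-0 and 14.5 ± 2.55 in brm-3dog1-4, and those libraries did not overlap. SMT2 rose in brm-3dog1-4 by 0.70 ± 0.24 over Col-0 (adjusted p = 0.0117, edgeR) and by 0.78 over brm-3 (adjusted p = 0.00586, edgeR), the latter call being lost without brm-3 replicate 3 (0.0672). Its 0.63 over dog1-4 was marginal (adjusted p = 0.0474, edgeR) and was lost with DESeq2 (0.141) and on leaving out any of 13 of the 16 libraries (0.0512 to 0.16), those kept being 2 of brm-3 and 1 of the double mutant.

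SMT3 (AT1G76090, chr1:28550202-28551836, minus strand) had 48, 43, 36 and 25 counts in Col-0, 25, 21, 33 and 24 in brm-3, 33, 18, 30 and 31 in dog1-4, and 31, 28, 13 and 29 in the double mutant. It averaged 26.1 ± 7.98 CPM (SD, n = 4) in Col-0, 15.9 ± 3.11 in brm-3, 23.0 ± 1.72 in dog1-4 and 11.3 ± 1.67 in the double mutant. The double mutant libraries were below all those of Col-0 and dog1-4. SMT3 fell by 1.18 ± 0.21 on the log2 scale in brm-3dog1-4 against Col-0 (adjusted p = 2.52e-06, edgeR) and by 1.02 against dog1-4 (adjusted p = 0.000215, edgeR), and against Col-0 it was still lower on library totals without TMM (log2 fold change -0.61, adjusted p = 0.00971, edgeR). In brm-3 it fell by 0.68 ± 0.21 (adjusted p = 0.0211, edgeR). That call was lost with DESeq2 (adjusted p = 0.0576) and in edgeR without Col-0 replicate 2 or 3 or brm-3 replicate 2 or 4 (0.0721 to 0.131).

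The ratio of SMT2 to SMT3 counts within a library does not depend on scaling. It was chosen after the values were seen and is a description. The ratio was 0.438, 0.233, 0.25 and 0.6 in Col-0, 0.72, 0.762, 0.242 and 0.583 in brm-3, 0.485, 0.5, 0.4 and 0.323 in dog1-4, and 1.35, 1.54, 1 and 1.28 in the double mutant. Every double mutant library was above all 12 others. It averaged 0.380 ± 0.174 (SD, n = 4) in Col-0, 0.577 ± 0.236 in brm-3, 0.427 ± 0.0823 in dog1-4 and 1.29 ± 0.223 in the double mutant, and the first 3 differed by less than the larger SD.

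**Figure D2:**
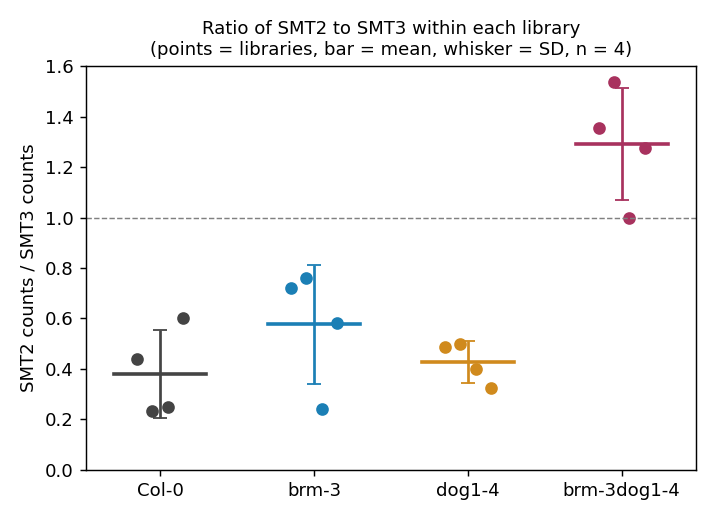
Ratio of SMT2 counts to SMT3 counts in each library, by genotype. Points are libraries, bars are means, whiskers are SD (n = 4), and the dashed line marks equal counts; the brm-3dog1-4 libraries sit between 1 and 1.54 and the other 12 between 0.233 and 0.762.

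Which of these enzymes changed in each mutant was read against the share of all genes that changed. Of the 9 genes other than DWF1, 6 passed the filter on low counts, CAS1 only through its brm-3dog1-4 libraries, so that the counts over the 6 in the double mutant are descriptions and the calls without CAS1 are given beside them. In brm-3 against Col-0, 1 of the 6 passed the edgeR test at an adjusted p under 0.05, SMT3, which was lower, and 10.2% of the 10251 tested genes did, 5.22% higher and 5.02% lower. In dog1-4 against Col-0 it was HYD1, 1 of the 6, which was higher, against 18.4% of tested genes, 9.84% higher and 8.58% lower. In brm-3dog1-4 against Col-0 HYD1 and SMT2 were higher and SMT3 and DWF7 lower, 4 of the 5 genes other than CAS1 and 5 of the 6 with it, against 46.1% of tested genes, 22.8% higher and 23.3% lower. On library totals the split was 4 higher and 1 lower. With a log2 fold change over 1 also required, the 6 gave 0 calls in brm-3, 0 in dog1-4 and 3 in the double mutant, namely HYD1, CAS1 and SMT3, and all tested genes 3.03%, 6.24% and 18.2%.

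Against brm-3, the double mutant had HYD1, CYP51G1 and SMT2 higher, CAS1 also where it is counted, and none of the 6 lower in the edgeR test, and 38.2% of tested genes passed, 18.5% higher and 19.7% lower. Against dog1-4 it had HYD1 and SMT2 higher and SMT3 and DWF7 lower, and 27.6% of tested genes passed, 12.1% higher and 15.4% lower. On library totals the split was 3 higher and 1 lower, and without dog1-4 replicate 3 or brm-3dog1-4 replicate 2 there were 2 calls in all. The brm-3dog1-4 libraries lay wholly above those of Col-0 for DWF1, HYD1, DWF5, CAS1, SMT2 and FK and wholly below for SMT3 and DWF7, and of all tested genes 19.9% lay wholly above and 19.9% wholly below in that comparison. Against dog1-4 it lay wholly above for DWF1, HYD1 and DWF5 and wholly below for SMT3 and DWF7, beside 10.7% and 12.9% of tested genes. Against brm-3 it lay wholly above for DWF1, HYD1, DWF5, CYP51G1 and CAS1, beside 16.1% of tested genes. In these 3 comparisons DWF1, picked for its level in brm-3dog1-4, and CAS1, which passed the filter through those libraries, are descriptions only. DWF5 and FK were under the filter and are not among the tested genes that give the shares. With a log2 fold change over 1 also required, HYD1 and CYP51G1 passed against brm-3, CAS1 also where it is counted, as did 11.7% of tested genes. Against dog1-4, HYD1 and SMT3 passed, as did 7.60%. All these contrasts share libraries and are not separate evidence.

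**Figure D3:**
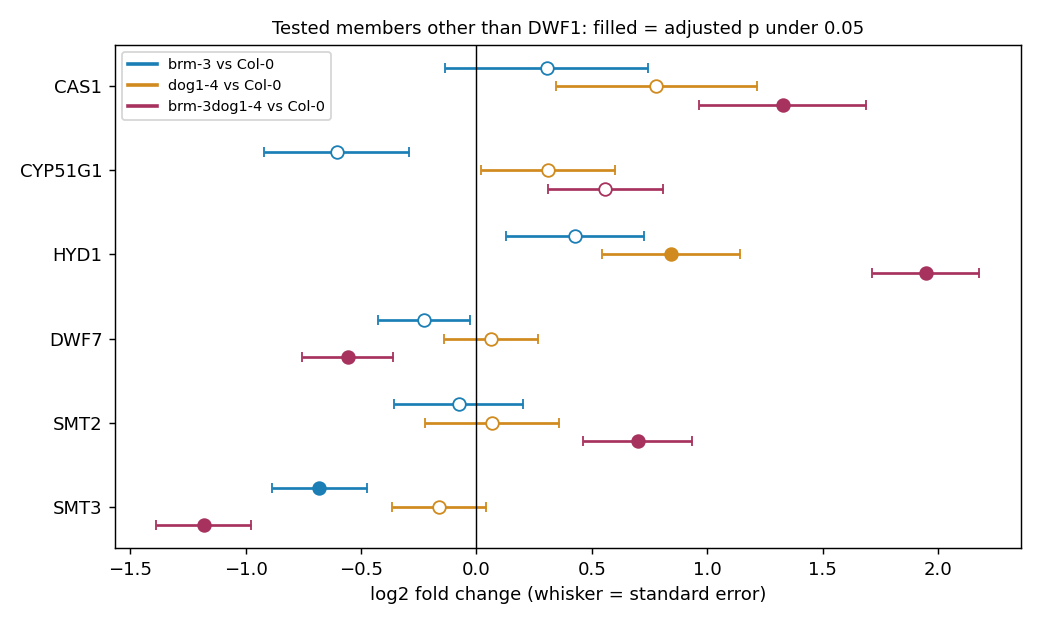
Log2 fold change against Col-0 of the 6 tested sterol enzymes other than DWF1 in the 3 mutants. Points are edgeR estimates, whiskers are standard errors and filled points have an adjusted p under 0.05. In brm-3dog1-4 CAS1 (tested through those libraries), HYD1 and SMT2 are filled to the right of 0 and SMT3 and DWF7 to the left, DWF7 with a difference of 0.015 on library totals without TMM.

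Whether the double mutant differed from the sum of both single mutant changes was tested as an interaction on the log2 scale. None of the 6 enzymes passed in edgeR (adjusted p 0.197 to 0.858), 1 had an unadjusted p under 0.05, CYP51G1 (log2 0.85 ± 0.40, unadjusted p = 0.0376, edgeR), and DESeq2 also called 0. The share of all tested genes under that unadjusted threshold was not counted. Over all tested genes 8.79% passed, 1.95% above and 6.84% below the sum. For HYD1 the interaction of 0.68 ± 0.38 missed the threshold (adjusted p = 0.298, edgeR). DWF1 was left out of this test, since its level in brm-3dog1-4 chose it.

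The other genes of the sterol pathway, most of which act before CAS1, passed in the double mutant in a share near that of all genes. Of 34 other sterol pathway genes listed, 33 were measured and 12 were abundant enough to be tested. In brm-3dog1-4 against Col-0, 1 of the 12 was higher and 5 were lower in the edgeR test, with a median log2 fold change of -0.17, against 46.1% of all tested genes, 22.8% higher and 23.3% lower, with a median of 0.015. On library totals without TMM, 7 were higher and 2 lower, so their balance rests on the scaling. The largest falls were in AACT2, the thiolase that makes acetoacetyl-CoA for the mevalonate pathway, and in HMGS, the synthase of the next step. AACT2 had 29 to 52 counts in Col-0 and 8 to 28 in brm-3dog1-4 and fell by 1.64 (adjusted p = 1.44e-09, edgeR), and it was lower on library totals as well (log2 fold change -1.07). HMGS was at 49.6 ± 4.35 CPM (SD, n = 4) in Col-0, 48.9 ± 5.23 in brm-3, 45.7 ± 6.48 in dog1-4 and 24.1 ± 2.94 in the double mutant. It fell by 1.05 (adjusted p = 9.33e-09, edgeR) and by 0.48 on library totals (adjusted p = 0.00431, edgeR), and neither single mutant passed. AACT1, the other thiolase gene, rose by 0.55 (adjusted p = 0.000103, edgeR).

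Further along, SMO2-1, a methyl oxidase that acts after HYD1, fell by 0.99 in brm-3dog1-4 (adjusted p = 1.37e-05, edgeR), or by 0.42 on library totals (adjusted p = 0.0709, edgeR), and by 0.93 in dog1-4 (adjusted p = 0.000656, edgeR). UGT80B1, which attaches glucose to sterols, fell by 0.69 (adjusted p = 0.00652, edgeR), or by 0.12 on library totals (adjusted p = 0.647, edgeR). SQE3, a squalene epoxidase, fell by 0.39 (adjusted p = 0.0293, edgeR), whereas on library totals it was 0.18 higher (adjusted p = 0.302, edgeR). In dog1-4 against Col-0, 3 of the 12 were lower, AACT2, SQE3 and SMO2-1, against 8.58% of all tested genes, and 1 of the 12 without Col-0 replicate 2 or dog1-4 replicate 2. AACT2 kept that call under 6 of 24 alternatives, and SQE3 kept its call in brm-3dog1-4 under 17 of 24. In brm-3, where 10.2% of all tested genes passed, there were 0 calls among the 12 in edgeR and in DESeq2. Without brm-3 replicate 2 SQE3 passed (adjusted p = 0.0374, edgeR). In edgeR 5 of the 12 had an unadjusted p under 0.05. The share of all tested genes under that unadjusted threshold was not counted, so the 5 cannot be set beside the 10.2%. The farnesyl diphosphate synthases FPS1 and FPS2 and the decarboxylases MVD1 and MVD2 had at most 2 counts in any library, and as near-identical pairs their counts are uncertain.

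Of 16 genes of brassinosteroid synthesis, inactivation and response, 6 were abundant enough to be tested. In brm-3dog1-4 against Col-0, 3 were higher and 0 lower in edgeR (4 higher and 1 lower without Col-0 replicate 2), with a median log2 fold change of 0.67, against 46.1% of all tested genes, 22.8% higher and 23.3% lower. ROT3, a cytochrome P450 of brassinosteroid synthesis, was at 14.6 ± 3.85 CPM (SD, n = 4) in Col-0, 24.9 ± 2.53 in brm-3, 31.4 ± 2.73 in dog1-4 and 35.0 ± 3.63 in the double mutant. It rose by 0.82 in brm-3 (adjusted p = 0.00247, edgeR), by 1.16 in dog1-4 (adjusted p = 5.23e-06, edgeR) and by 1.30 in brm-3dog1-4 (adjusted p = 9.82e-09, edgeR), so it passed in all 3 mutants. The share of all tested genes that passed in all 3 was not counted. BRI1, the brassinosteroid receptor, rose by 0.98 (adjusted p = 0.00304, edgeR) and BIN2, the kinase that represses the response, by 0.77 (adjusted p = 4.58e-06, edgeR) in brm-3dog1-4. In each single mutant 2 of the 6 were higher and 0 lower in edgeR. Of all tested genes 10.2% passed in brm-3, 5.22% higher, and 18.4% in dog1-4, 9.84% higher. DET2, the steroid reductase, rose in dog1-4 by 0.77 (adjusted p = 0.0181, edgeR), and SOB7, which inactivates brassinosteroids, in brm-3 by 0.88 (adjusted p = 0.0229, edgeR). Both calls were lost with DESeq2 (adjusted p = 0.0630 and 0.0889). In edgeR that of DET2 was also lost with every detected gene tested (adjusted p = 0.0571) or without Col-0 replicate 1 or 2 or dog1-4 replicate 1 (0.0527 to 0.0736), and that of SOB7 without Col-0 replicate 1 or brm-3 replicate 2 or 3 (0.0669 to 0.129).

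**Figure D4:**
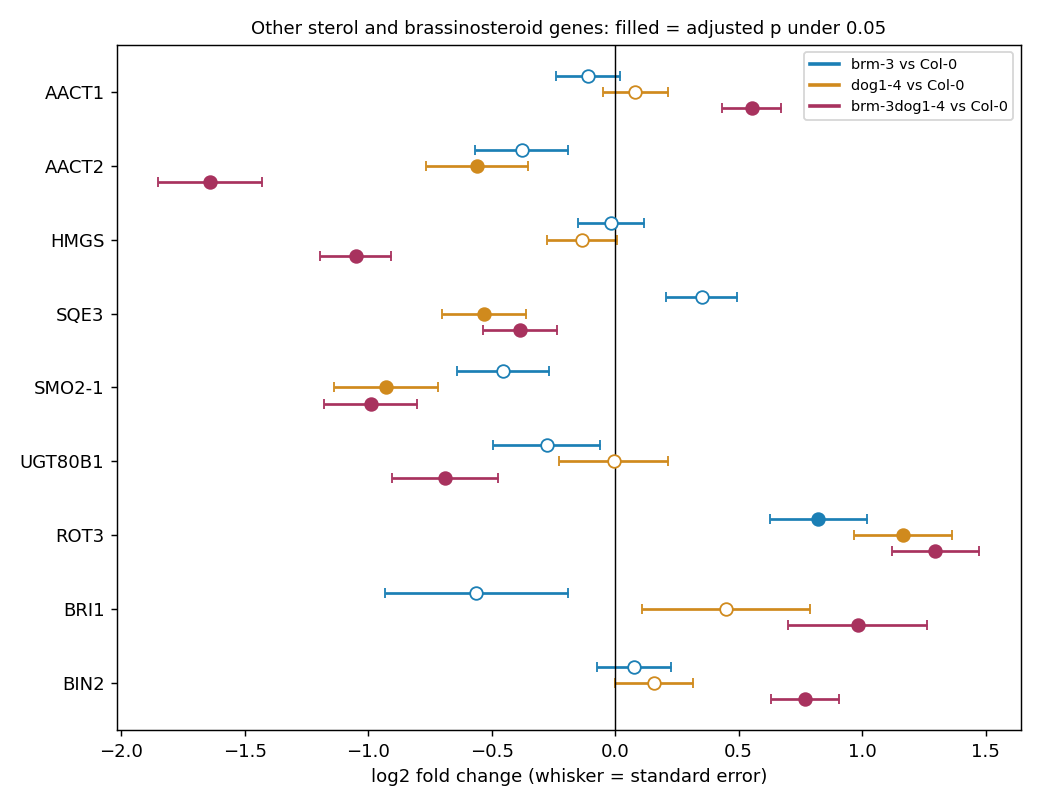
Log2 fold change against Col-0 of the 6 other sterol genes and 3 brassinosteroid genes that passed the edgeR test in brm-3dog1-4, in the 3 mutants. Points are estimates, whiskers are standard errors and filled points have an adjusted p under 0.05. AACT2, HMGS, SQE3, SMO2-1 and UGT80B1 lie to the left of 0 in brm-3dog1-4, SQE3 turning to 0.18 on library totals without TMM, and AACT1, ROT3, BRI1 and BIN2 lie to the right.

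The ranked genes whose pattern was most like that of DWF1 were not sterol enzymes. Likeness was the root mean square difference of log2 CPM over the 16 libraries, after each gene's mean was removed, among 10243 genes with a mean of at least 5 counts. The nearest were FBA8, a fructose-bisphosphate aldolase, at 0.649, AT5G11420 at 0.658, CCL at 0.666, GASA6, a small gibberellin-regulated peptide, at 0.680, and GRP7, a glycine-rich RNA-binding protein, at 0.715. FBA8 was at 1.75 ± 0.856 CPM (SD, n = 4) in Col-0, 6.31 ± 3.19 in brm-3, 7.12 ± 2.84 in dog1-4 and 33.2 ± 5.95 in the double mutant. GASA6 had 0 counts in all Col-0 libraries and 16 to 53 in those of brm-3dog1-4. DWF5, FK and SMT1, with means under 5 counts, were not ranked. Of the 6 sterol enzymes ranked, HYD1 was nearest to DWF1, in place 126 at 1.13, followed by SMT2 in place 1113 and CAS1 in place 1242. SMT3 was in place 9606.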

How the data were processed

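The authors deposited 1 table per library of whole-number counts of reads per locus, not normalized. Seed RNA was extracted with phenol and chloroform, treated with DNase, primed with barcoded oligo(dT) and pooled. The submitters' processing notes name STAR 2.7.8a, DESeq2 and TAIR10. The counting program, use of strand and use of molecular identifiers are not given in the sources used here, so overlapping and near-identical genes are uncertain. The tables hold no coordinates: positions and sequences are from RefSeq TAIR10.1, which held 37051 of 37336 identifiers, the rest having 0.809% of counts.

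Here edgeR 4.0.16 (R 4.3.3) was used with TMM, filterByExpr by genotype (10251 genes tested), a robust quasi-likelihood fit of all 16 libraries and Benjamini-Hochberg adjustment, a gene being called at an adjusted p under 0.05. Genes under the filter had exact permutation tests. The scripts were tested on simulated data. Library totals ran from 803578 to 2359673. The 24 pairs of libraries of 1 genotype differed beyond sampling noise, so none was counted as 1 sample.

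The members and lists were chosen with earlier results of these data known. Named are all members, listed pathway genes called in brm-3dog1-4 against Col-0, the mutated genes and the 5 genes nearest to DWF1. BAS1, DET2, SOB7, the low pathway genes and the neighbouring genes were named after their values were seen. Alternatives were other normalizations, filters and fold thresholds, DESeq2 1.42.0, the 2 groups alone, a replicate block and each library left out. Library totals without TMM were added after seeing the data. SMO1-3 was not analysed here.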

Additional observations from a re-analysis of the deposited data

Results flagged for a closer look

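A library stood far from the other 3 of its genotype in 3 of 76 groups of 4 examined, and chance alone gives about 1 in 20. A group with a single count in 1 library and 0 in the rest always meets the rule, so that rate does not apply to DWF1 and FK below. Col-0 had 1 library with DWF1 at 0.814 CPM, a single count, where the others were at 0. FK was likewise at 0.643 CPM in 1 Col-0 library, also a single count, and at 0 in the rest. BRI1 was at 12.01 CPM in 1 brm-3dog1-4 library, where the next was at 10.6 and all 4 were above every Col-0 library.

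In 2 of 15 genes examined the change in brm-3dog1-4 differed from the sum of both single mutant changes, against 8.79% of all tested genes, and DET2, not among the 15, passed as well (interaction -1.20, adjusted p = 0.0122, edgeR). The 15 include genes named because they passed in brm-3dog1-4 against Col-0, and HMGS and AACT1 are among these. The interactions of these 2 use the same libraries, so they are descriptions, and 8.79% is not a like share. HMGS was lower than the sum of both single mutant changes by an interaction of -0.90 on the log2 scale (adjusted p = 0.00174, edgeR). Its 4 brm-3dog1-4 libraries were below all 12 others, and the share of genes that do so was not counted. On library totals without TMM the interaction was -0.58 (adjusted p = 0.0593, edgeR). AACT1 was higher than the sum by 0.58 (adjusted p = 0.0276, edgeR), a call lost when Col-0 replicate 4, brm-3 replicate 1 or 4, dog1-4 replicate 3 or brm-3dog1-4 replicate 1 was left out (adjusted p 0.0547 to 0.12, edgeR).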

How the results depend on the processing

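Of 31 called single-gene differences, 17 kept direction and call under every alternative other than the fold threshold. HYD1, SMT2 and SMT3 in brm-3dog1-4 against Col-0 were among them. CAS1 in that contrast was too, but it passed the filter through those libraries, so its call is a description. The fold threshold was applied to counts of genes, and SMT2 (0.70), for one, does not pass it. The call was lost somewhere for 14, and 2 reversed, DWF7 (0.015) and SQE3 (0.18) in brm-3dog1-4 against Col-0 on library totals. Of 41 not called, 7 passed somewhere. Sterol enzymes called (DWF1 aside) went in brm-3 from 1 to 0 with DESeq2 or a log2 fold change over 1, in dog1-4 from 1 to 0 with these or with every detected gene tested, in brm-3dog1-4 from 5 to 8 with every detected gene tested and to 3 over that fold, and against dog1-4 from 4 to 2 with DESeq2 or over that fold. With 1 library left out these counts were 0 to 1, 0 to 1, 4 to 6 and 2 to 4, and against brm-3 3 to 5. Other sterol genes called went in dog1-4 from 3 to 0 and in brm-3dog1-4 from 6 to 2 over that fold, and were 0 to 1 in brm-3, 1 to 3 in dog1-4 and 5 to 8 in brm-3dog1-4 with 1 library left out. Brassinosteroid genes called went in brm-3 from 2 to 1 with DESeq2 and 0 over that fold, in dog1-4 from 2 to 1 with either, and in brm-3dog1-4 from 3 to 5 on library totals, 6 with every detected gene tested and 1 over that fold; with 1 library left out they were 1 to 2, 1 to 2 and 3 to 5. The DWF1 bound was 25.0-fold on library totals and 13.9 to 19.8 with 1 library left out. The cause of these differences was not tested, apart from the fewer genes over a fold threshold and the shift of all genes on library totals.

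Libraries of 1 replicate number deviated together weakly at most (24 pairs, r from -0.0345 to 0.0722). The median r was 0.0153, against -0.0144 for pairs of unlike number, and 9 of 16 libraries correlated best with their own number. Whether the numbers pair the libraries is not settled by such weak correlations. With a replicate block, 1, 1, 5, 4 and 3 sterol enzymes were called for brm-3, for dog1-4 and for the double mutant against Col-0, and for the latter against brm-3 and against dog1-4, where SMT2 was lost (adjusted p = 0.0553, edgeR). At 3 counts for 0.964 to 3.87 CPM, SMT1, FK and DWF5 are at the limit of the depth.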

Other observations

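BAS1, a cytochrome P450 that inactivates brassinosteroids, was below the filter on low counts and was chosen after its values were seen. It had 0, 0, 0 and 1 counts in Col-0, 0, 0, 1 and 0 in brm-3, 8, 4, 5 and 10 in dog1-4, and 4, 4, 4 and 5 in the double mutant. Both genotypes with the dog1-4 insertion were above both without it, and in dog1-4, at 5.46 ± 1.53 CPM (SD, n = 4), it was above brm-3dog1-4, at 2.13 ± 0.971, in mean and in every library.

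DET2 was likewise singled out after its values were seen. It was at 9.56 ± 2.71 CPM (SD, n = 4) in Col-0, 13.1 ± 0.809 in brm-3, 16.5 ± 0.368 in dog1-4 and 10.0 ± 1.63 in the double mutant, with an interaction of -1.20 on the log2 scale (adjusted p = 0.0122, edgeR), or -0.87 on library totals without TMM (adjusted p = 0.0789, edgeR). DESeq2 gave it no adjusted p.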
